A study of Mus musculus with 9 samples.

Results

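PRF 50 on a high-fat diet was compared with the normal diet in mouse liver, using the 3 livers of the PRF 50 group and the 3 livers of the ND group, which are 6 of the 9 livers of the series. The members were chosen by their group labels alone: PRF mice 3, 9 and 10 and ND mice 6, 7 and 9. All mice were male C57BL/6J, an inbred strain that becomes obese when it eats a fat-rich diet, and every liver was taken at postnatal day 100. ND mice ate a normal chow throughout. PRF 50 mice were first made obese on a high-fat diet, stayed on it, and in the later weeks also received by mouth, once daily, 50 mg/kg of a polymethoxyflavone-rich fraction (PRF) from the leaves of the citrus tree Citrus sunki, diluted in carboxymethyl cellulose. Whether ND or HFD mice received the carboxymethyl cellulose vehicle is not given in the sources used here. The mice fasted before tissue collection. The PRF 50 and ND groups thus differ in diet and in PRF, and these cannot be told apart in this comparison. The remaining 3 livers, HFD mice 1, 2 and 3, came from mice on the high-fat diet without PRF. They did not enter the main tests, and for some genes their values are given beside those of the 6 livers as a description.

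Polymethoxyflavones are plant flavonoids whose hydroxyl groups are largely replaced by methoxy groups, and the liver clears such compounds with cytochrome P450 enzymes, which oxidize them, and with transferases that add glutathione, glucuronic acid or sulfate. The same hepatocytes handle dietary fat: the nuclear receptor PPARA drives fatty-acid oxidation genes, SREBP-1c and ChREBP drive fatty-acid synthesis, and esterases and lipases release fatty acids from stored triglyceride. Hepatocytes also secrete most plasma proteins, including the acute-phase proteins that IL-6 induces through STAT3, and they share the tissue with Kupffer cells, the resident macrophages of the sinusoids.

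The deposited tables give a value for each of 23183 gene symbols in each liver, which is taken to be log2(FPKM + 1). FPKM counts the fragments of a gene per kilobase of its transcript, scaled to the total of mapped fragments. All levels below are on this scale unless FPKM is named, and a difference of 1 on it is a 2-fold change for abundant genes and understates the change of scarce ones. Tests covered the 10051 genes whose level averaged 1 FPKM or more across the 6 livers. Dph7 lay just below this limit and 4933404O12Rik just above it. In the 6 livers, 14522 to 14980 genes had a value above 0. How many reads each liver received is unknown. Ratios between the lowest values gave depths, relative to ND 6, of 1.08 for ND 7, 1.05 for ND 9, 0.928 for PRF 3, 1.43 for PRF 9 and 0.91 for PRF 10, so that PRF 9 has the least error at low levels. The highest value belonged to the apolipoprotein gene Apoa2 in ND 6 and ND 7, to the small nucleolar RNA gene Snord49a in ND 9, and to the major urinary protein gene Mup20 in all 3 PRF 50 livers.

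The liver label was checked against 16 hepatocyte markers. Of these, 15 were tested and albumin (Alb) is listed at 0 in all 6 livers, while abundant markers such as Apoa2 and Apoa1, the apolipoproteins of high-density lipoprotein, were present throughout. Apoa2 stood at 14.64, 14.11 and 13.90 in ND 6, 7 and 9 and at 13.82, 13.91 and 13.90 in PRF 3, 9 and 10. A value of 0 in these tables is therefore reported only as listed at 0. The summed FPKM of the hepatocyte markers was 65550, 49540 and 44320 in ND 6, 7 and 9 and 54920, 53420 and 49820 in PRF 3, 9 and 10, so the groups overlapped. None of the 15 passed the adjusted limma test, and 2 had an unadjusted p under 0.05. Their median log2 fold change was -0.03, and its sign turned under quantile normalization (0.04), under a transcript length correction (0.08) and without ND 6 (0.02), and it was -0.19 without ND 9.

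Compared with ND livers, PRF 50 livers had far less RNA of the drug-metabolizing P450 gene Cyp3a11 and lower levels of further P450, glutathione transferase and carboxylesterase genes. The genes Cd36, Ehhadh, Acaa1b and Me1, of fatty-acid uptake, peroxisomal oxidation and NADPH supply, fell as well. The secreted-peptide genes Enho and Tff3, the male-typical Moxd1, and the myeloid genes Ccl6, Spi1 and Alox5ap rose. Every one of the 20 Kupffer cell markers had a higher mean in PRF 50 than in ND, although no single marker passed the adjusted test in the fit of these 6 livers. Some acute-phase genes, among them Saa1 and Lcn2, were far above ND in PRF 3 and PRF 9 but not in PRF 10.

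In numbers, 46 of 10051 tested genes (0.458%) passed a Benjamini-Hochberg adjusted limma p under 0.05. Of these, 16 (0.159% of tested genes) were higher and 30 (0.298%) lower in PRF 50. In all 46, the 3 PRF 50 values lay outside the range of the 3 ND values, and 38 of them changed more than 2-fold. With an unadjusted p under 0.05 and a fold change above 2 as criteria, 177 genes differed, 105 of them higher (1.04% of tested genes) and 72 lower (0.716%). Without the fold criterion, 609 genes were higher (6.06%) and 647 lower (6.44%). The groups did not overlap in 2005 genes, with PRF 50 above ND in 823 (8.19%) and below it in 1182 (11.8%). Of all tested genes, 4367 (43.4%) had a log2 fold change above 0, and the median was -0.03. These shares are the background for the counts of each gene list below. The lists were chosen with earlier results of these data known, so their counts are descriptions and not tests.

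**Figure D1:**
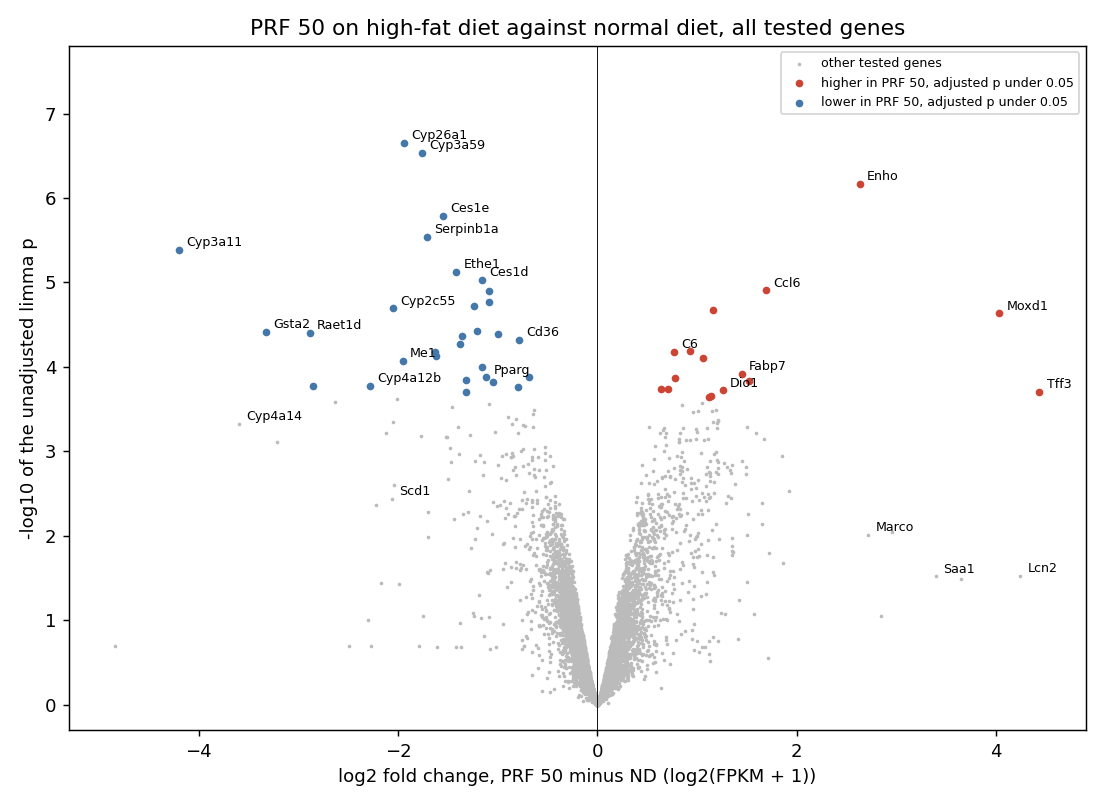
Each point is a tested gene, with the log2 fold change of PRF 50 against ND on the horizontal axis and minus log10 of the unadjusted limma p on the vertical axis. Red and blue points mark the 16 higher and 30 lower genes with adjusted p under 0.05. Lcn2, Saa1 and Marco are as far to the right as called genes but low on the vertical axis, because their PRF 50 values are widely spread.

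The number of calls depended on single mice. Without ND 7, 4 genes were called, and without PRF 3, 8 were, all of them among the 46. Of 17 calls without ND 6, 15 were among the 46, as were 21 of 26 without PRF 9, 31 of 59 without ND 9 and 27 of 71 without PRF 10. Of the 46 genes, 4 kept the call whichever mouse was left out: Enho, Cyp26a1, Cyp3a59 and Ces1e. All 46 kept their direction with each mouse left out. Under settings that use all 6 livers, the calls that remained of the 46 were 11 with no minimum level, 35 under quantile normalization, 37 with the transcript length correction, 39 with all 9 mice in 1 fit, 43 with a variance without trend, 44 with a pseudocount of 0.1 and 46 with median-of-ratios scaling. With a minimum of 10 FPKM, 33 of the 46 were tested and all of these remained. Those called with no minimum level were Enho, Cyp3a11, Cyp26a1, Cyp3a59, Serpinb1a, Ces1e, C6, Ces1d, Ces1f, Abcc3 and Ethe1. For the genes described below, the mice whose omission lifts the adjusted p above 0.05, and every other setting that does so apart from the one with no minimum level, are named with that p. For comparison, the same fit called 133 of 9978 genes (1.33%) between HFD and ND, and 362 of 10084 genes (3.59%) between PRF 50 and HFD. These comparisons share mice with the present one, so only values are set side by side. Among the 46 called genes, the HFD mean lay between the ND and PRF 50 means but nearer ND in 21. It was nearer PRF 50 in 11: Gna14, Slc22a7, Gbp3, Vegfb, Gstm4, Ethe1, Cyp2c55, Raet1d, Raet1e, Gsta2 and Cyp3a11. It lay beyond PRF 50 in 4: Dio1, Ces2a, Cyp26a1 and Cyp4a12b. In the other 10 it was on the side of ND away from PRF 50, for some of them only slightly.

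Enho showed the clearest increase. It encodes adropin, a small secreted peptide made in liver and brain and linked to energy balance. Its level was 2.88, 3.08 and 2.50 in ND 6, 7 and 9 and 5.74, 5.27 and 5.36 in PRF 3, 9 and 10, with 3.39, 2.66 and 2.53 in HFD 1, 2 and 3. The 3 PRF 50 livers stood well above all others, and the ND and HFD livers overlapped. The groups differed by 2.64 on the log2 scale (0.18 standard error, with an adjusted p of 0.00228), a 6.22-fold rise, and over all alternative settings the adjusted p lay between 0.00106 and 0.0338. Enho shared no 50-base stretch with transcripts of other genes.

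Moxd1 encodes a copper-dependent monooxygenase related to dopamine beta-hydroxylase and belongs to the genes that male mouse liver expresses more than female liver. It was 0.18 in ND 6, listed at 0 in ND 7 and 0.27 in ND 9, against 3.26, 5.34 and 3.96 in PRF 3, 9 and 10. It is listed at 0 in all 3 HFD livers. The listed values were thus 0.27 or less in the 6 livers without PRF and 3.26 or more in the PRF 50 livers, with a log2 difference of 4.04 (0.45 standard error; 0.0155 adjusted p). The adjusted p passed 0.05 without ND 6 (0.0995) or ND 7 (0.0747), in a range from 0.00241 to 0.0995 over all settings. Part of the region before its start is printed below because growth hormone acts on sex-typical liver genes through STAT5, whose letters TTCNNNGAA were searched on both strands in the 250 bases before the start of each gene, with 1 promoter per symbol from RefSeq (GRCm38.p6). They occurred in 1940 of 27025 promoters (7.18%) and in 466 of the 7744 matched promoters of tested genes (6.02%). Of the 24 tested male-biased genes, 18 had a promoter entry and 3 of these held the letters (Moxd1, C8a and Keg1), and of the 9 matched female-biased genes only Hamp2 did. The Moxd1 stretch lies on the plus strand at chr10:24223327-24223406, upstream of the gene's first exon, with the match in capitals starting 150 bases before the start.
Moxd1: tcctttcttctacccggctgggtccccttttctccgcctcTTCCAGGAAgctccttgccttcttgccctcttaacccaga
A match describes the letters in this window and is not evidence of binding.

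Tff3 encodes trefoil factor 3, a secreted peptide best known from intestinal goblet cells and bile duct epithelium. Its level was 2.26, 1.76 and 2.43 in ND 6, 7 and 9, 6.29, 8.29 and 5.18 in PRF 3, 9 and 10, and 4.11, 1.76 and 0.28 in HFD 1, 2 and 3. All PRF 50 livers were above all ND livers, and the spread was wide within the PRF 50 and HFD groups. The groups differed by 4.44 on the log2 scale (0.67 standard error, with an adjusted p of 0.0457), the largest rise among the called genes on this scale. With a pseudocount of 0.1, Moxd1 rose more (6.47 against 4.75). The adjusted p passed 0.05 without ND 6 (0.168), ND 7 (0.179), ND 9 (0.0700), PRF 3 (0.136), with all 9 mice in 1 fit (0.0569), under quantile normalization (0.0546) or with the length correction (0.0630). Tff3 had the highest mean FPKM of the 9 cholangiocyte markers. Of these, 4 were tested, with a median of 0.39, and 3 of the 4 were higher with an unadjusted p under 0.05 and without overlap of the groups. The summed FPKM of the markers was 33.0, 34.2 and 36.6 in ND 6, 7 and 9, with Tff3 a small part of it, and 123, 349.2 and 75.4 in PRF 3, 9 and 10. The next most abundant marker, osteopontin (Spp1), stood at a log2 fold change of 0.45 with an adjusted p of 0.191. Whether a change in bile duct cells had a part in the Tff3 result was not tested.

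**Figure D2:**
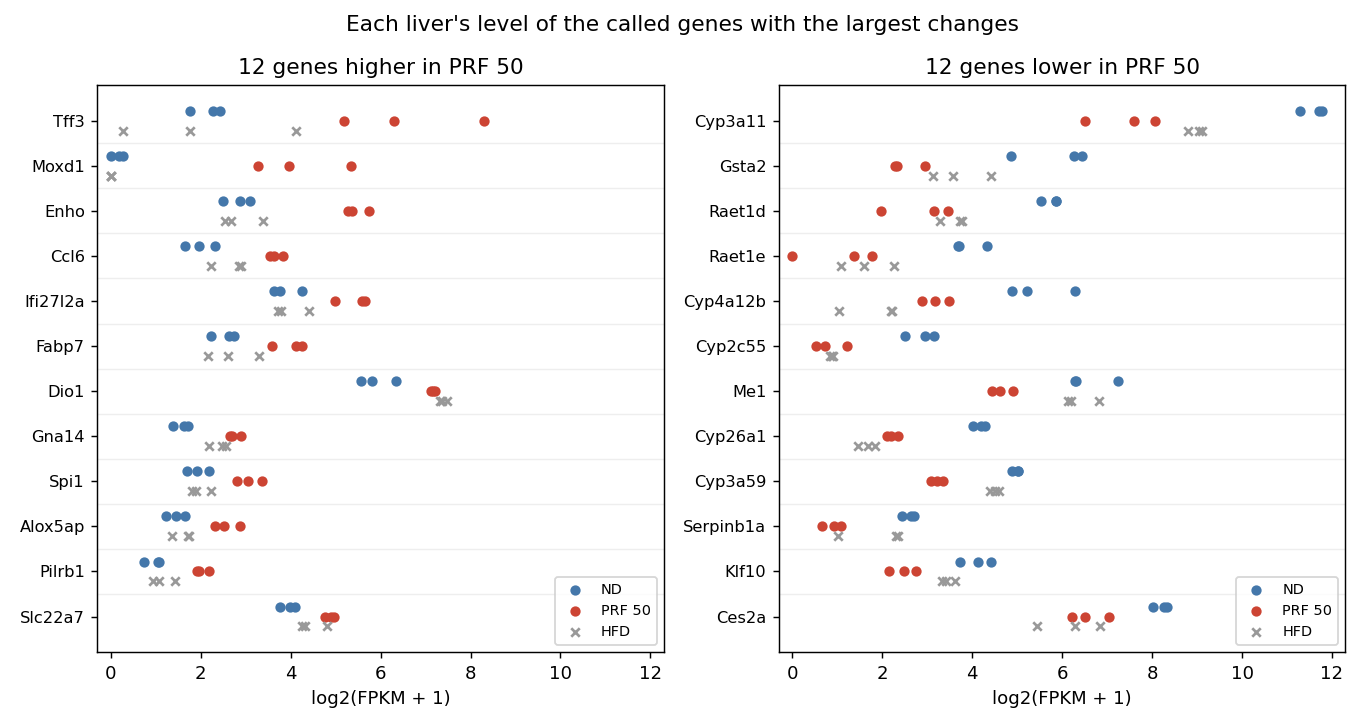
Level of the 12 called genes with the largest change in each direction, on the log2(FPKM + 1) scale, with a point for every ND (blue) and PRF 50 (red) liver and a cross for every HFD liver. Blue and red points of a gene never overlap, while the HFD crosses lie with the ND livers for some genes (Enho, Me1) and with the PRF 50 livers for others (Dio1, Cyp2c55).

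Among the other called increases were several genes of myeloid cells. Ccl6, a chemokine made by macrophages and other myeloid cells, was 1.66, 1.95 and 2.30 in ND 6, 7 and 9 and 3.83, 3.63 and 3.53 in PRF 3, 9 and 10 (log2 fold change 1.69, standard error 0.17, adjusted p = 0.0128). The adjusted p passed 0.05 without ND 7 (0.0747) or PRF 3 (0.0618). Spi1, the transcription factor PU.1 of macrophages, neutrophils and B cells, was 1.91, 1.70 and 2.17 in the ND livers and 3.35, 2.80 and 3.04 in the PRF 50 livers (adjusted p = 0.0491). Alox5ap, which presents arachidonic acid to 5-lipoxygenase for leukotriene synthesis, rose by 1.12 on the log2 scale (adjusted p = 0.0495), and Pilrb1, an activating receptor of myeloid cells, by 1.06 (adjusted p = 0.0295). In each of these genes all 3 PRF 50 livers were above all 3 ND livers. The Spi1 call was lost without ND 6 (0.166), ND 7 (0.177), PRF 3 (0.137), PRF 9 (0.0590), PRF 10 (0.0722), under quantile normalization (0.0546), with the length correction (0.0536) or without a variance trend (0.0516), the Alox5ap call without ND 6 (0.165), ND 7 (0.179), ND 9 (0.0502), PRF 3 (0.136), PRF 9 (0.0603), PRF 10 (0.0704), under quantile normalization (0.0594) or without a variance trend (0.0509), and the Pilrb1 call without ND 6 (0.0995), ND 7 (0.112), PRF 3 (0.130), PRF 9 (0.0648) or PRF 10 (0.0541). For Pilrb1, 30.1% of its 50-base stretches also occur in other transcripts, mostly Pilrb2.

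Kupffer cell markers pointed the same way as a list. Of 20 markers, all tested, 20 had a higher mean in PRF 50 (43.4% of all tested genes did), 17 of them passed p under 0.05 with a fold above 2, none passed the adjusted limma test, and 18 had PRF 50 values above all ND values. The median log2 fold change was 1.31, against -0.03 for all tested genes. Some members, such as Marco and Cd5l, were already listed by the authors as higher in these PRF 50 livers than in HFD livers. The counts therefore describe the list and do not test it. The summed FPKM of the list was 208.3, 344 and 424.6 in ND 6, 7 and 9, 1050, 627.3 and 726.3 in PRF 3, 9 and 10, and 226.5, 341.4 and 342.3 in HFD 1, 2 and 3. PRF 3 was the highest and ND 6 the lowest of the 6 livers, and the groups did not overlap. Without ND 6 the median was 1.01, and 10 markers kept to both criteria. The median stayed between 1.01 and 1.54 over all settings. Without ND 9, 3 markers were called, without PRF 9 or PRF 10 1 in each case, and with all 9 mice in 1 fit 4. In bulk RNA, more cells of a type and more RNA per cell cannot be told apart, here and in each list below.

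The most abundant Kupffer marker was Cd5l, a secreted scavenger protein of tissue macrophages, with 4.26, 5.09 and 5.44 in ND 6, 7 and 9 and 7.02, 6.29 and 6.49 in PRF 3, 9 and 10 (log2 fold change 1.67, adjusted p = 0.0749). Vsig4, the complement receptor of resident macrophages, was 2.94, 3.73 and 4.34 and 5.36, 5.01 and 5.11 in the same order (adjusted p = 0.101). Clec4f, a lectin largely restricted to Kupffer cells in mice, was 3.70, 4.71 and 5.11 and 5.97, 5.71 and 5.72 (adjusted p = 0.153), and Timd4, the phosphatidylserine receptor of resident macrophages, was 1.37, 1.73 and 2.0 and 3.13, 2.71 and 2.72 (adjusted p = 0.0602). In these 4 genes the groups were separate, with ND 6 the lowest liver of all 6. The scavenger receptor gene Marco was less even, with 1.21, 1.14 and 1.98 in the ND livers and 5.90, 2.21 and 4.38 in PRF 3, 9 and 10, so that PRF 9 was close to ND 9. Groups overlapped for 2 markers, among them Slc40a1, the iron exporter ferroportin, at 5.52, 5.82 and 5.87 in the ND and 6.17, 5.36 and 6.16 in the PRF 50 livers. HFD livers had Cd5l levels of 4.47, 5.14 and 5.43, within the range of the ND livers.

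Markers of leukocytes in general gave a similar picture. Of 20 pan-leukocyte and recruited-macrophage markers, 14 were tested, 13 had a higher mean in PRF 50 and 5 passed p under 0.05 with a fold above 2. An unadjusted p under 0.05 was found for 10 in the higher direction and 1 in the lower. None passed the adjusted limma test in the fit of these 6 livers, while 2 did with all 9 mice in 1 fit and 1 without PRF 10. The median log2 fold change of these markers was 0.90, or 0.60 without PRF 3, when 1 gene met both criteria, and 1.03 without PRF 9, when 8 did. Tyrobp, the signaling adaptor of myeloid receptors and the most abundant of them, was 3.45, 4.24 and 4.64 in ND 6, 7 and 9 and 5.95, 5.27 and 5.26 in PRF 3, 9 and 10 (adjusted p = 0.119). Neutrophil markers were scarce. Of 10 in the tables, only S100a8 and S100a9, subunits of calprotectin, were tested. S100a8 was 1.19, 2.09 and 1.65 in the ND livers and 4.98, 3.38 and 1.30 in PRF 3, 9 and 10, so PRF 3 and PRF 9 were above the ND livers and PRF 10 was not. Only 3 of 17 lymphocyte markers were tested, with none past the adjusted test and 1, the antibody-joining chain Jchain, at p under 0.05 (log2 fold change 1.01, adjusted p = 0.114).

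**Figure D3:**
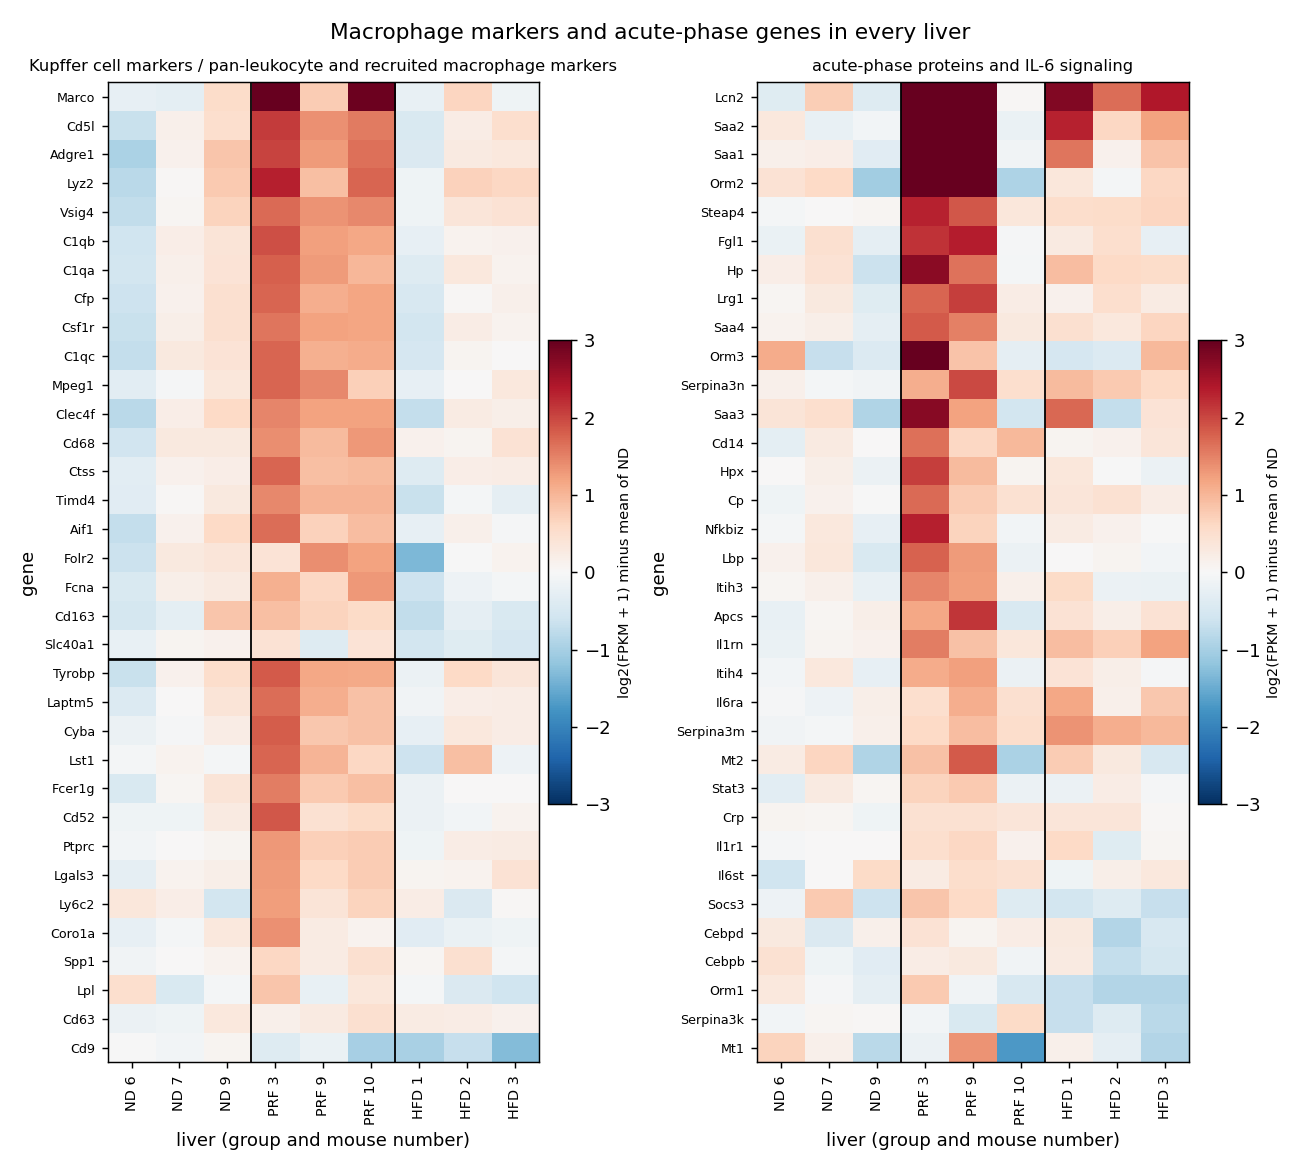
Difference of each liver from the ND mean, on the log2(FPKM + 1) scale, with genes in rows, livers in columns and colors limited to differences of 3 in either direction. The left map holds Kupffer cell markers above the line and pan-leukocyte markers below it, higher in all 3 PRF 50 livers for most genes, and the right map holds acute-phase genes, some of which (Saa1, Lcn2, Orm2) are high in PRF 3 and PRF 9 and near the ND level in PRF 10.

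Some acute-phase genes separated the PRF 50 mice from each other. Of 34 tested, 33 had a higher mean in PRF 50 and 9 passed p under 0.05 with a fold above 2, but none passed the adjusted limma test, while 16 had an unadjusted p under 0.05. In 11 of the 34, all PRF 50 livers, PRF 10 included, were above all ND livers. The median log2 fold change was 0.96. Saa1, a serum amyloid A gene that hepatocytes switch on in inflammation and that shares 31.5% of its 50-base stretches with other transcripts, mainly Saa2, was 6.98, 7.03 and 6.49 in ND 6, 7 and 9 and 12.46, 11.52 and 6.73 in PRF 3, 9 and 10 (log2 fold change 3.40, adjusted p = 0.333). Lcn2, the iron-siderophore binder lipocalin 2, was 1.78, 2.87 and 1.74 in the ND livers and 9.57, 7.39 and 2.17 in the PRF 50 livers (adjusted p = 0.332). In both genes PRF 3 and PRF 9 were far above every ND liver, whereas PRF 10 lay within the ND range. The HFD livers had Lcn2 levels of 4.92, 3.80 and 4.54, between these. Haptoglobin (Hp), which binds free hemoglobin, was 10.88, 11.10 and 10.04 and 13.37, 12.29 and 10.61, and orosomucoid 2 (Orm2), a plasma lipid carrier with 22.7% of its stretches in other transcripts, was 4.62, 4.79 and 3.16 and 9.91, 7.92 and 3.26, in the same order of mice. PRF 3 was again the highest and PRF 10 lay within the range of the ND livers.

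Without PRF 10, the acute-phase list had 9 adjusted calls, 22 members past p under 0.05 with a fold above 2 and a median of 1.36. Without PRF 3, 2 members met these criteria and the median was 0.58, and without PRF 9, 4 members did and it was 0.80. Without ND 6 or ND 9 the number of members was 4 in each case. The summed FPKM of the list was 14800, 15800 and 12680 in ND 6, 7 and 9 and 46040, 28190 and 16520 in PRF 3, 9 and 10, with Serpina3k, an antichymotrypsin-like serpin, as its most abundant gene. The Serpina3k level barely differed, with a log2 fold change of 0.01 (adjusted p = 0.992). The hemopexin gene Hpx, whose product binds heme, was 11.35, 11.52 and 11.16 in the ND livers and 13.43, 12.29 and 11.42 in PRF 3, 9 and 10 (adjusted p = 0.402).

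Among acute-phase genes without overlap was Steap4, a metalloreductase induced by inflammatory cytokines. It was 4.83, 4.89 and 4.94 in ND 6, 7 and 9 and 7.20, 6.76 and 5.22 in PRF 3, 9 and 10 (log2 fold change 1.5, adjusted p = 0.216). All PRF 50 livers were above all ND livers, PRF 10 by little. Promoter entries existed for 25 of the 34 acute-phase genes, and TTCNNNGAA, the letters bound by STAT3 as well, occurred in 4 of them (16%; Itih4, Apcs, Steap4 and Socs3), beside 7.18% of all promoters. Itih4, a plasma protease-inhibitor heavy chain, was 8.48, 8.89 and 8.33 in the ND livers and 9.69, 9.80 and 8.40 in the PRF 50 livers. The Steap4 stretch is at chr5:7960322-7960391 and the Itih4 stretch at chr14:30886386-30886455, both on the plus strand of GRCm38.p6 from RefSeq, upstream of the first exon, with the match in capitals starting 116 and 51 bases before the start.
Steap4: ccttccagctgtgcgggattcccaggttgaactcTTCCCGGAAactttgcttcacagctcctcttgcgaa
Itih4: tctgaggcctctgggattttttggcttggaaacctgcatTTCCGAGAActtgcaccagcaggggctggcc

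Complement genes, most of which hepatocytes secrete, were mostly higher. Of 29 tested, 26 had a higher mean in PRF 50 and 1, C6, passed the adjusted test, with a median log2 fold change of 0.47 (0.30 without PRF 3). C6 is a component of the membrane attack complex and a male-typical liver gene. Its level was 5.63, 5.69 and 5.78 in ND 6, 7 and 9 and 6.50, 6.46 and 6.45 in PRF 3, 9 and 10 (log2 fold change 0.77, standard error 0.10, adjusted p = 0.0268). The values within each group hardly differed, and the adjusted p passed 0.05 without ND 6 (0.0778), ND 7 (0.142), PRF 3 (0.136), PRF 9 (0.0778) or PRF 10 (0.0514). HFD 1, 2 and 3 had C6 levels of 4.61, 4.49 and 4.32, below all ND livers. The 5 members past p under 0.05 with a fold above 2 were C1qa, C1qb and C1qc, the chains of C1q that macrophages make, properdin (Cfp) and Vsig4, and all 5 are also on the Kupffer list. Without a single mouse, 4 to 6 members met both criteria. The central component C3 stood at a log2 fold change of 0.47 with an adjusted p of 0.513. Coagulation genes differed less, with 20 of 23 higher, a median of 0.19 (0.31 under quantile normalization) and none past the adjusted limma test (2 had an unadjusted p under 0.05).

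Interferon-induced genes were mildly higher as a list. Of 31 tested members of interferon response and antigen presentation, 26 had a higher mean, 15 had an unadjusted p under 0.05 in this direction and 2 passed the adjusted test, with a median log2 fold change of 0.30. Ifi27l2a, a small interferon-induced membrane protein, was 3.77, 3.63 and 4.25 in ND 6, 7 and 9 and 5.59, 4.99 and 5.65 in PRF 3, 9 and 10 (log2 fold change 1.53, adjusted p = 0.0420). Gbp3, a guanylate-binding protein of cell-autonomous defense, was 2.04, 2.02 and 2.06 and 2.70, 2.61 and 2.72 (adjusted p = 0.0447), with nearly equal values within each group. Oasl2, a relative of the antiviral oligoadenylate synthetases that is not on this list, rose by 0.71 (adjusted p = 0.0447). In HFD 1, 2 and 3, Gbp3 was 2.58, 2.43 and 2.83, around the PRF 50 level, while the HFD means of Ifi27l2a and Oasl2 were nearer ND. No PRF 50 liver overlapped with an ND liver in these 3 genes. Their calls were lost without ND 6 (0.160), ND 7 (0.157), PRF 3 (0.137) or PRF 10 (0.0645) for Ifi27l2a, ND 6 (0.137), ND 7 (0.179), ND 9 (0.0706), PRF 3 (0.153), PRF 9 (0.101), PRF 10 (0.0843) or under quantile normalization (0.0546) for Gbp3 and ND 6 (0.125), ND 7 (0.161), ND 9 (0.0740), PRF 3 (0.149), PRF 9 (0.131), PRF 10 (0.0819), under quantile normalization (0.0760) or with a pseudocount of 0.1 (0.0512) for Oasl2. The abundant light chain of MHC class I, B2m, stood at a log2 fold change of -0.17 with an adjusted p of 0.796.

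Other called increases were Fabp7, Dio1, Gna14, Slc22a7 and Emp2. Fabp7, the brain-type fatty-acid-binding protein, was 2.23, 2.73 and 2.63 in ND 6, 7 and 9 and 4.25, 3.58 and 4.12 in PRF 3, 9 and 10 (log2 fold change 1.45, adjusted p = 0.0401). Dio1, the deiodinase that activates thyroid hormone in liver, was 5.57, 5.81 and 6.34 and 7.16, 7.22 and 7.12 (log2 fold change 1.26, adjusted p = 0.0453), and the HFD livers had 7.36, 7.33 and 7.48. For Dio1 the ND livers were the low group, and both groups on the high-fat diet were above them. Gna14, a G protein alpha subunit that activates phospholipase C, rose by 1.16 (adjusted p = 0.0152), Slc22a7, an organic anion transporter of the sinusoidal membrane, by 0.93 (adjusted p = 0.0268), and Emp2, a tetraspan membrane protein, by 0.78 (adjusted p = 0.0416). None of the 5 overlapped between groups. The calls were lost without ND 6 (0.137), ND 7 (0.112), ND 9 (0.0553), PRF 3 (0.130), PRF 10 (0.0627) or with the length correction (0.0517) for Fabp7, ND 6 (0.124), ND 7 (0.179), PRF 3 (0.137), PRF 9 (0.121), PRF 10 (0.0690), under quantile normalization (0.0546) or with the length correction (0.0736) for Dio1 and ND 7 (0.0747) or PRF 3 (0.0671) for Gna14. For Slc22a7 this was so without ND 6 (0.0995), ND 7 (0.112), PRF 3 (0.130), PRF 9 (0.0577) or PRF 10 (0.0514), and for Emp2 without ND 6 (0.140), ND 7 (0.164), ND 9 (0.0552), PRF 3 (0.130), PRF 9 (0.0858), PRF 10 (0.0627), with all 9 mice in 1 fit (0.0902) or under quantile normalization (0.0503).

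On this scale, the largest decrease of all called genes was that of Cyp3a11, the main drug-metabolizing P450 of mouse liver and a target of the xenobiotic receptor PXR. Its level was 11.78, 11.70 and 11.30 in ND 6, 7 and 9, 7.60, 6.51 and 8.07 in PRF 3, 9 and 10 and 9.12, 8.81 and 9.04 in HFD 1, 2 and 3. It fell by 4.20 log2 units (0.37 standard error, with an adjusted p of 0.00684), an 18.4-fold decrease. All PRF 50 livers were below all HFD livers, and these were below all ND livers. The adjusted p passed 0.05 without ND 7 (0.0683) and lay between 7.9e-04 and 0.0683 over all settings. Cyp3a59 fell by 1.76 (adjusted p = 0.00147), from 5.02, 5.03 and 4.89 in the ND livers to 3.09, 3.36 and 3.22 in the PRF 50 livers, and kept its call in every setting. Cyp3a25 fell by 1.0 (adjusted p = 0.0217, lost without ND 6 (0.0654), ND 7 (0.122), PRF 3 (0.130) or PRF 9 (0.0629)). Cyp3a59 and Cyp3a25 share sequence, as 30.0% and 26.8% of their 50-base stretches occur in other transcripts, so reads may be divided between them, while Cyp3a11 shares 6.73%.

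Cyp2c55, a P450 that oxidizes arachidonic acid and responds to xenobiotic receptors, was 3.16, 2.95 and 2.50 in ND 6, 7 and 9, 1.21, 0.71 and 0.52 in PRF 3, 9 and 10 and 0.84, 0.87 and 0.90 in HFD 1, 2 and 3. It fell by 2.05 (adjusted p = 0.0152), and PRF 50 and HFD livers were alike in being low. The call was lost without ND 6 (0.0778), ND 7 (0.0747) or PRF 9 (0.0510). As a list, 28 of 34 tested P450 genes of families 1 to 3 had a lower mean, 15 had an unadjusted p under 0.05 in this direction, 7 of these with a fold above 2, and 4 passed the adjusted test. The median log2 fold change was -0.50 (-0.30 without ND 6), and the summed FPKM was 17900, 15190 and 12300 in ND 6, 7 and 9 and 9500, 9904 and 11010 in PRF 3, 9 and 10. Without ND 7, 1 member was called and 3 met the fold criterion, and without ND 6 or PRF 9, 2 members were called. Cyp2b10, the classic target of the receptor CAR, was 1.94, 1.73 and 0.95 and 0.20, 0.09 and 0.14 (adjusted p = 0.0690). Cyp2e1, the ethanol-oxidizing P450 and the most abundant of the list, overlapped between groups, with 12.48, 12.16 and 11.84 in the ND livers and 12.09, 12.29 and 12.23 in the PRF 50 livers.

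**Figure D4:**
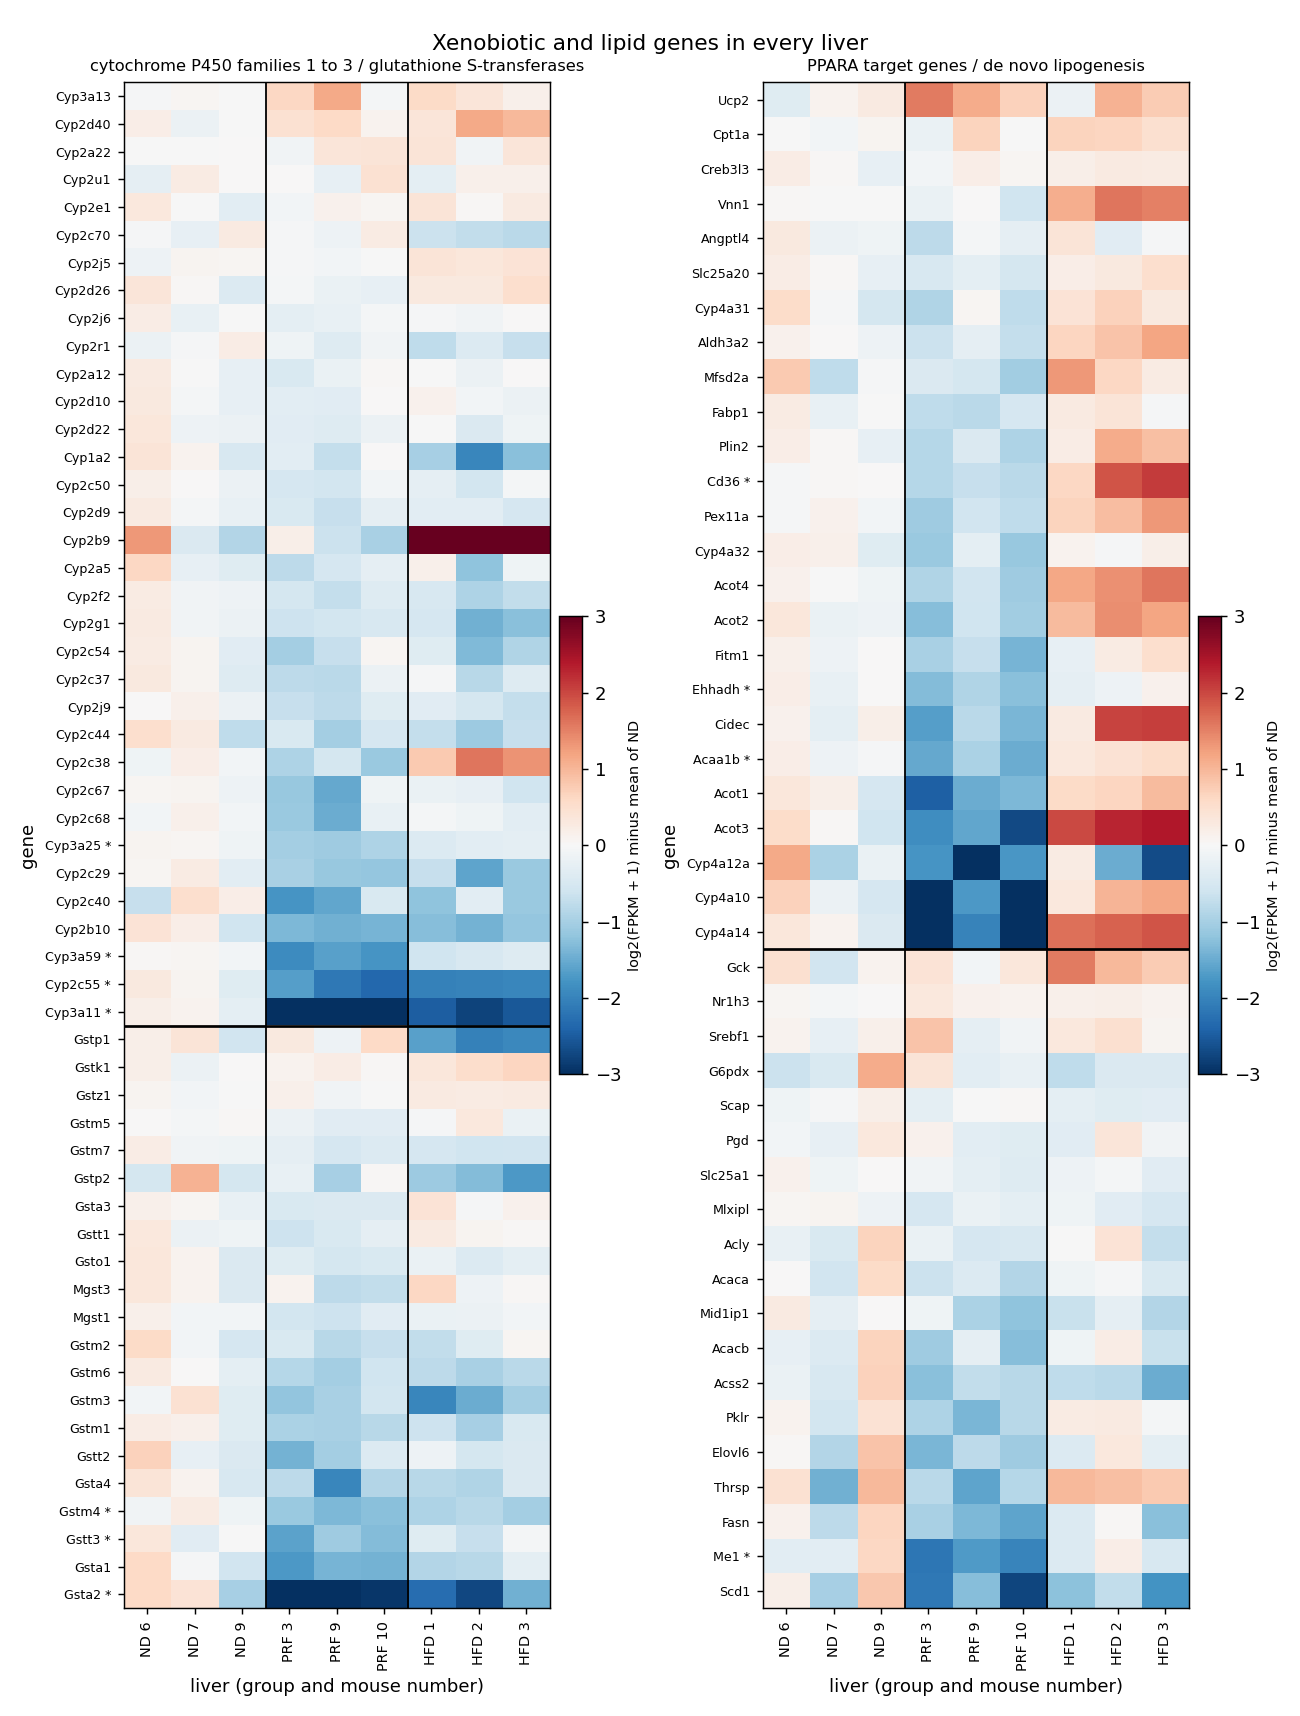
Difference of each liver from the ND mean, on the log2(FPKM + 1) scale, with genes in rows, livers in columns, colors limited to differences of 3 in either direction, and an asterisk at genes with adjusted p under 0.05. The left map holds P450 genes of families 1 to 3 and glutathione transferases, mostly lower in PRF 50, and the right map holds most of the PPARA targets and the fatty-acid synthesis genes, where PRF 50 livers are mostly low, and HFD livers are often high for the PPARA targets.

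Genes of conjugation followed the P450 genes downward. Gsta2, an alpha-class glutathione transferase, was 6.44, 6.26 and 4.86 in ND 6, 7 and 9 and 2.29, 2.33 and 2.94 in PRF 3, 9 and 10. It fell by 3.33 (standard error 0.40, adjusted p = 0.0217), with ND 9 the lowest of the ND livers but still above all PRF 50 livers. Its call was lost without ND 6 (0.0995), ND 7 (0.0945), PRF 3 (0.0960) or PRF 9 (0.0590), and 49.8% of its 50-base stretches occur in other transcripts, chiefly Gsta1. Gstm4 fell by 1.24 (adjusted p = 0.0152, lost without ND 7 (0.0683), PRF 3 (0.0618) or PRF 9 (0.0510)) and Gstt3 by 1.32 (adjusted p = 0.0457, lost without ND 6 (0.140), ND 7 (0.0747), ND 9 (0.0706), PRF 3 (0.137), PRF 9 (0.0604), PRF 10 (0.0704), with the length correction (0.0516) or without a variance trend (0.0504)). These belong to the mu and theta classes. In HFD 1, 2 and 3, Gstm4 was 4.50, 4.59 and 4.41, Gsta2 was 3.57, 3.13 and 4.42, and Gstt3 was 5.32, 4.99 and 5.62. The HFD mean was nearer PRF 50 than ND for Gstm4 and Gsta2, and nearer ND for Gstt3. Of 21 tested glutathione transferases, 18 had a lower mean, 16 an unadjusted p under 0.05, and 3 passed the adjusted test, with a median of -0.50. None was called without ND 7, PRF 3 or PRF 9, and 1 was without ND 6. Without ND 9, 8 rather than 5 met p under 0.05 with a fold above 2. Mgst1, the microsomal enzyme and most abundant member, was 12.37, 12.12 and 12.13 and 11.66, 11.59 and 11.86 (adjusted p = 0.292).

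Ugdh, which makes the UDP-glucuronic acid that glucuronosyltransferases consume, was 6.66, 6.77 and 6.24 in ND 6, 7 and 9 and 5.49, 5.6 and 5.45 in PRF 3, 9 and 10. It fell by 1.04 (adjusted p = 0.0426), with no overlap, and the call was lost without ND 6 (0.148), ND 7 (0.156), PRF 3 (0.137), PRF 9 (0.0929), PRF 10 (0.0713) or under quantile normalization (0.0503). Abcc3, which exports glucuronides to the blood, fell by 1.09 (adjusted p = 0.0128, lost without ND 7 (0.0747) or PRF 3 (0.0618)), and Slco1a4, a sinusoidal uptake transporter of organic anions, by 1.38 (adjusted p = 0.0245, lost without ND 6 (0.0896), ND 7 (0.0945), PRF 3 (0.0722), PRF 9 (0.0590) or with all 9 mice in 1 fit (0.0636)). Ces2a, a carboxylesterase that hydrolyzes drugs and acylglycerols and shares 17.3% of its 50-base stretches with other transcripts, was 8.34, 8.27 and 8.02 in the ND livers, 6.50, 6.22 and 7.05 in the PRF 50 livers and 6.83, 5.45 and 6.29 in the HFD livers (adjusted p = 0.0290, lost without ND 6 (0.137), ND 7 (0.134), PRF 3 (0.130) or PRF 9 (0.0590)), so both groups on the high-fat diet were low. The 22 tested glucuronosyl- and sulfotransferase genes had a median of -0.33, with 19 lower and 1 called, Ugdh. The receptors themselves differed little: PXR (Nr1i2) was 4.87, 4.41 and 4.54 and 4.51, 4.40 and 4.30, and CAR (Nr1i3) was 5.65, 5.28 and 5.05 and 5.06, 5.32 and 4.97, with overlap in both. The 17 tested NRF2 targets had a median of -0.28, but the heme oxygenase gene Hmox1, active in macrophages that degrade heme, was 2.70, 3.44 and 3.45 in the ND livers and 6.2, 3.66 and 4.90 in PRF 3, 9 and 10 (adjusted p = 0.273).

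Cyp26a1 encodes the hydroxylase that degrades retinoic acid, and retinoic acid induces it. Its level was 4.18, 4.28 and 4.01 in ND 6, 7 and 9, 2.35, 2.2 and 2.11 in PRF 3, 9 and 10 and 1.68, 1.83 and 1.45 in HFD 1, 2 and 3. It fell by 1.94 (standard error 0.12, adjusted p = 0.00147, at most 0.0189 over all settings), and PRF 50 livers were between HFD and ND livers. Of 23 tested retinoid genes, 15 had a lower mean, with a median of -0.12 (-0.01 under quantile normalization), and Cyp26a1 was the call among them.

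Targets of PPARA were lower in PRF 50 than in ND livers. Of 27 tested, 24 had a lower mean, 18 had an unadjusted p under 0.05, 9 of these with a fold above 2, and 3 passed the adjusted test, with a median log2 fold change of -0.78. Ehhadh, the bifunctional enzyme of peroxisomal fatty-acid oxidation, was 7.17, 6.76 and 6.99 in ND 6, 7 and 9 and 5.66, 6.08 and 5.71 in PRF 3, 9 and 10 (fell by 1.16, adjusted p = 0.0343). Acaa1b, the peroxisomal thiolase, was 9.57, 9.22 and 9.36 and 7.85, 8.44 and 7.89 (fell by 1.32, adjusted p = 0.0420), and 30.5% of its 50-base stretches also occur in Acaa1a. Cd36, the fatty-acid translocase, was 4.42, 4.51 and 4.47 and 3.61, 3.78 and 3.66, with 5.08, 6.34 and 6.55 in HFD 1, 2 and 3 (fell by 0.78, adjusted p = 0.0229). In all 3 genes every PRF 50 liver was below every ND liver, and for Cd36 the HFD livers were above both. The calls were lost without ND 6 (0.117), ND 7 (0.0747), ND 9 (0.0618), PRF 3 (0.136) or PRF 10 (0.0623) for Ehhadh, ND 6 (0.145), ND 7 (0.126), ND 9 (0.0692), PRF 3 (0.137), PRF 10 (0.0690) or under quantile normalization (0.0546) for Acaa1b and ND 6 (0.0689), ND 7 (0.126), PRF 3 (0.130), PRF 9 (0.0521), PRF 10 (0.0501) or with all 9 mice in 1 fit (0.279) for Cd36. As a list, no target was called without ND 6, ND 7, PRF 3 or PRF 10, while 2 were without ND 9 and 4 without PRF 9. With all 9 mice in 1 fit 7 targets were called, with a minimum of 10 FPKM 5, and under quantile normalization 2. Of 14 tested genes of fatty-acid uptake and binding, 9 had a lower mean, and the calls were Cd36 (lower) and Fabp7 (higher). The median of this list was -0.11, or -0.21 without PRF 9, -0.03 under quantile normalization and -0.35 with a minimum of 10 FPKM. Of 26 peroxisomal genes, 21 had a lower mean, with a median of -0.23 (-0.14 under quantile normalization), and Ehhadh and Acaa1b were the calls.

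The largest differences of the list did not pass the adjusted test in the fit of these 6 livers. Cyp4a14, a fatty-acid omega-hydroxylase, was 6.73, 6.50 and 5.97 in ND 6, 7 and 9, 1.62, 4.41 and 2.38 in PRF 3, 9 and 10 and 8.05, 8.17 and 8.28 in HFD 1, 2 and 3 (log2 fold change -3.60, adjusted p = 0.0690). Cyp4a10, a paralog that shares 29.8% of its 50-base stretches with other transcripts, was 7.71, 6.85 and 6.54 and 2.94, 5.31 and 3.18 (adjusted p = 0.0767), and the peroxisomal thioesterase gene Acot3 (19.1% shared) was 3.91, 3.40 and 2.78 and 1.5, 1.80 and 0.65 (adjusted p = 0.0690). PRF 9 was the highest PRF 50 liver in all 3 and still below every ND liver. Without PRF 9, the adjusted limma p was 0.00384 for Cyp4a14, 0.00826 for Cyp4a10 and 0.0809 for Acot3. With all 9 mice in 1 fit it was 0.0253, 0.0357 and 0.0267. Acot3 also passed without ND 9 (0.0414) and Cyp4a14 with a minimum of 10 FPKM (0.0468). In the remaining settings none of the 3 passed. The receptor gene Ppara was 5.68, 5.50 and 5.78 and 5.67, 5.99 and 5.49, with overlap. The target Cpt1a, the gate of mitochondrial fatty-acid import, differed little, with a log2 fold change of 0.16 (adjusted p = 0.792). Ucp2, an inner-membrane carrier that macrophages also express, went the other way at 1.13 (adjusted p = 0.106). The letters of the PPAR response element, 2 copies of AGGTCA spaced by 1 base, were found in none of the 19 targets with a promoter entry and in 10 of all 27025 promoters (0.037%).

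Fatty-acid synthesis was lower as a list. Of 19 tested genes, 16 had a lower mean, 10 had an unadjusted p under 0.05 and 1, Me1, passed the adjusted test, with a median log2 fold change of -0.65 (-0.40 without ND 9). Me1, the cytosolic malic enzyme that supplies NADPH for lipid synthesis, was 6.30, 6.29 and 7.24 in ND 6, 7 and 9, 4.44, 4.90 and 4.62 in PRF 3, 9 and 10 and 6.19, 6.82 and 6.12 in HFD 1, 2 and 3. It fell by 1.95 (standard error 0.26, adjusted p = 0.0302), with the PRF 50 livers below all others, and 22.9% of its 50-base stretches occur in other transcripts. The call was lost without ND 6 (0.0995), ND 7 (0.0747), PRF 3 (0.130), PRF 9 (0.0590), PRF 10 (0.0514) or under quantile normalization (0.0546). Scd1, the stearoyl-CoA desaturase and most abundant gene of the list, was 11.41, 10.25 and 12.05 in the ND livers and 9.10, 9.95 and 8.48 in the PRF 50 livers (log2 fold change -2.06, adjusted p = 0.151). Fasn, the fatty acid synthase, was 5.17, 4.25 and 5.68 and 4.06, 3.69 and 3.46 (adjusted p = 0.171). ND 9 was the highest and ND 7 the lowest ND liver in both, and neither overlapped with PRF 50. With both criteria, 5 genes of the list differed, and this was 8 without ND 7 and 2 without ND 9.

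Lipases and the lipogenic receptor PPARG were also lower. Ces1d, a triglyceride hydrolase of the endoplasmic reticulum that feeds lipoprotein assembly, was 8.56, 8.51 and 8.69 in ND 6, 7 and 9 and 7.38, 7.45 and 7.46 in PRF 3, 9 and 10. It fell by 1.16 (adjusted p = 0.0116, lost without ND 7 (0.0734) or PRF 3 (0.0671)). Its neighbors Ces1e and Ces1f, related carboxylesterases, fell by 1.55 (adjusted p = 0.00409) and 1.09 (adjusted p = 0.0152, lost without ND 7 (0.0747) or PRF 3 (0.0743)), and Ces1e kept its call in every setting. Values within groups were close in all 3, and no liver of a group reached the other. Pparg was 3.56, 3.58 and 3.56 in the ND livers and 2.60, 2.67 and 2.08 in the PRF 50 livers (fell by 1.12, adjusted p = 0.0416, lost without ND 6 (0.148), ND 7 (0.157), ND 9 (0.0687), PRF 3 (0.126), PRF 9 (0.0551) or with the length correction (0.0524)). Its target Cidec, which enlarges lipid droplets, was 1.85, 1.42 and 1.90 and 0.08, 0.90 and 0.36, against 1.99, 3.74 and 3.79 in HFD 1, 2 and 3 (adjusted p = 0.0729). The droplet coat gene Plin2 was 8.09, 7.93 and 7.65 and 7.03, 7.45 and 6.98 (adjusted p = 0.139). Of 21 tested droplet and lipase genes, 16 had a lower mean and 3 were called, or 1 without ND 7 or PRF 3, with a median of -0.35 (-0.16 without ND 6).

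Sex-typical genes differed in both directions. Of 24 tested male-biased genes, 13 had a higher mean in PRF 50, and 2 were called higher (Moxd1, C6) and 1 lower (Cyp4a12b). Without PRF 10, 1 was called higher and 4 lower, and without ND 7 none was called. With all 6 livers, 2 higher and 4 lower genes met p under 0.05 with a fold above 2. The median was 0.08 and turned negative without ND 6, ND 9 or PRF 10 (-0.02, -0.05 and -0.18). Of 13 tested female-biased genes, 8 had a lower mean, 4 of these passed p under 0.05 with a fold above 2 and 1 was called (Slco1a4, lower), with a median of -0.14 that turned positive without ND 6 (0.03), without PRF 10 (0.02) or with a minimum of 10 FPKM (0.07). Cyp4a12b, a male-typical arachidonic acid hydroxylase, was 6.28, 4.89 and 5.23 in ND 6, 7 and 9, 2.89, 3.17 and 3.49 in PRF 3, 9 and 10 and 2.23, 1.04 and 2.2 in HFD 1, 2 and 3. It fell by 2.28 (adjusted p = 0.0441, lost without ND 7 (0.0747), ND 9 (0.0579), PRF 3 (0.137) or PRF 9 (0.108)), and PRF 50 livers lay between the HFD and ND livers. It shares 49.4% of its 50-base stretches with Cyp4a12a. Mup20, the male pheromone darcin, was 13.47, 12.31 and 12.53 in the ND livers and 14.24, 14.10 and 14.44 in the PRF 50 livers (log2 fold change 1.49, adjusted p = 0.107), and 50.5% of its stretches occur in other transcripts. Nat8, an acetyltransferase, was 4.74, 4.92 and 4.84 and 2.55, 1.83 and 3.99 (adjusted p = 0.121).

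Of 18 tested genes of the growth hormone and IGF axis, 11 had a higher mean (median 0.09) and none passed the adjusted test with all 6 livers. The median was 0.01 without ND 7, when 9 were higher, 0.02 without ND 9, 0.03 without PRF 9 and 0.13 without PRF 3. Cish (lower) and Bcl6 (higher) were the members past p under 0.05 with a fold above 2, and Bcl6 no longer met both criteria without ND 9, PRF 3 or PRF 9. Without PRF 10, both passed the adjusted test (0.00704 for Cish and 0.00642 for Bcl6). Cish, a feedback inhibitor that STAT5 induces, was 4.23, 3.79 and 3.67 in ND 6, 7 and 9 and 1.85, 1.41 and 3.33 in PRF 3, 9 and 10 (adjusted p = 0.171). Bcl6, a repressor that STAT5 holds down, was 1.59, 1.43 and 1.15 and 3.72, 4.48 and 1.55 (adjusted p = 0.292). In both genes PRF 3 and PRF 9 were far from the ND livers, and PRF 10 was next to or within them.

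Several called decreases lay outside the pathways above. Raet1d and Raet1e encode ligands of the NK cell receptor NKG2D. Raet1d was 5.85, 5.52 and 5.86 in ND 6, 7 and 9 and 3.15, 3.46 and 1.97 in PRF 3, 9 and 10 (fell by 2.89, adjusted p = 0.0217), and Raet1e was 3.67, 3.70 and 4.33 and 1.36, 1.77 and 1.0e-04 (fell by 2.86, adjusted p = 0.0441). The ND and PRF 50 groups were separate, with PRF 10 the lowest liver. The HFD livers were low too, with Raet1d at 3.74, 3.78 and 3.28 and Raet1e at 1.59, 2.26 and 1.07 in HFD 1, 2 and 3. Raet1d and Raet1e share 55.8% and 44.7% of their 50-base stretches with other transcripts, mainly each other, so they count as a single observation. The calls were lost without ND 6 (0.117), ND 7 (0.0747) or PRF 3 (0.0671) for Raet1d and ND 6 (0.152), ND 7 (0.151), ND 9 (0.0706), PRF 3 (0.130), with the length correction (0.0679) or with a pseudocount of 0.1 (0.159) for Raet1e. Serpinb1a, an inhibitor of neutrophil elastase, was 2.71, 2.64 and 2.43 and 0.67, 0.92 and 1.07 in the same order (fell by 1.71, adjusted p = 0.00581, lost without ND 7 (0.0683)). Klf10, a TGF-beta-induced transcription factor, fell by 1.63 (adjusted p = 0.0268, lost without ND 6 (0.106), ND 7 (0.0683), ND 9 (0.0513), PRF 3 (0.0618) or PRF 9 (0.0711)).

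Car3, a carbonic anhydrase abundant in liver and fat, was 11.27, 11 and 10.81 in ND 6, 7 and 9 and 9.60, 9.66 and 9.75 in PRF 3, 9 and 10, with 11.13, 10.75 and 11.23 in HFD 1, 2 and 3. It fell by 1.35 (adjusted p = 0.0217, lost without ND 7 (0.114), PRF 3 (0.130) or PRF 9 (0.0603)), and HFD and ND livers were alike. Txnip, the glucose-induced binder of thioredoxin, fell by 1.21 (adjusted p = 0.0217, lost without ND 6 (0.0995), ND 7 (0.112), PRF 3 (0.0618) or with all 9 mice in 1 fit (0.0501)). Ethe1, the mitochondrial persulfide dioxygenase that disposes of sulfide, was 5.82, 5.75 and 5.44 and 4.16, 4.19 and 4.41 (fell by 1.42, adjusted p = 0.0107, lost without ND 7 (0.0734) or PRF 3 (0.0618)), and the HFD livers were low too at 4.35, 4.57 and 4.51. S100a10, a partner of annexin A2, fell by 0.80 (adjusted p = 0.0447, lost without ND 6 (0.0637), ND 7 (0.179), ND 9 (0.0706), PRF 3 (0.162), PRF 9 (0.113), PRF 10 (0.0694), with all 9 mice in 1 fit (0.0643), under quantile normalization (0.122) or with the length correction (0.163)), and Vegfb, a vascular growth factor, by 0.68 (adjusted p = 0.0416, lost without ND 6 (0.117), ND 7 (0.126), ND 9 (0.0700), PRF 3 (0.138), PRF 9 (0.0938), PRF 10 (0.0694), with all 9 mice in 1 fit (0.154) or with the length correction (0.0733)). Close to the limit was Csad, the enzyme of taurine synthesis, at 5.50, 7.42 and 6.42 in the ND and 3.67, 4.05 and 3.73 in the PRF 50 livers (adjusted p = 0.0544). G6pc, the catalytic subunit of glucose-6-phosphatase, was 6.17, 5.75 and 6.70 and 3.26, 4.76 and 4.23 (adjusted p = 0.0706).

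Respiratory chain genes were uniformly a little lower. All 48 had a lower mean in PRF 50, with a median log2 fold change of -0.29 and 26 without overlap of the groups, but none passed the adjusted limma test and 9 had an unadjusted p under 0.05. Ndufb8, a complex I subunit, was 8.06, 7.84 and 7.86 in ND 6, 7 and 9 and 7.36, 7.35 and 7.56 in PRF 3, 9 and 10 (log2 fold change -0.50, adjusted p = 0.154). Short transcripts were lower as a whole: among tested genes the median was -0.16 for 608 genes with transcripts under 1000 bases and 0.02 for 1813 genes with 5000 or more. Of the 48 respiratory genes, 22 have transcripts under 1000 bases, 19 from 1000 to below 2000, 4 from 2000 to below 3000 and 3 from 3000 to below 5000. In these classes their medians were -0.33, -0.23, -0.20 and -0.29, against -0.15, -0.09, -0.04 and 0.00 for the other tested genes of the same class. Under quantile normalization or the length correction the median of the 48 was -0.16, and 1 gene had a higher mean, and without ND 6 the median was -0.17.

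No calls fell on the following lists. Of 17 tested stellate cell and matrix genes, 16 had a higher mean (median 0.44, or 0.14 with 13 higher without ND 6 and 0.22 without PRF 10) and none passed the adjusted limma test, with 2 at an unadjusted p under 0.05. Of 16 sinusoidal endothelial markers, 6 had a higher mean (median -0.15, from -0.36 without PRF 10 to 0.00 without ND 9), with none at either threshold. Red cell markers summed to 227.8, 146.7 and 131.9 FPKM in ND 6, 7 and 9 and 162.5, 189.4 and 157.9 in PRF 3, 9 and 10, led by the globin gene Hba-a1, which shares 72.3% of its stretches with Hba-a2. Medians were near 0 for insulin signaling (0.03, or -0.04 without ND 6), AMPK subunits (-0.07), the circadian clock (-0.02), bile-acid synthesis (-0.04) and gluconeogenesis (0.00). The sign turned under the length correction for the last 3 lists, and under quantile normalization for the clock and bile-acid synthesis. For the clock it also turned without ND 6 (0.09), PRF 3 (0.01) or PRF 9 (0.0037). For gluconeogenesis it turned without ND 7 (-0.04), ND 9 (-0.04), PRF 3 (-0.01) or PRF 9 (-0.0045), and the median was -0.18 with a minimum of 10 FPKM. Mitochondrial fatty-acid oxidation had 23 of 24 genes with a lower mean (median -0.21, or -0.12 without ND 6 and -0.08 with 8 genes higher under quantile normalization), none past the adjusted limma test and 3 with an unadjusted p under 0.05.

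**Figure D5:**
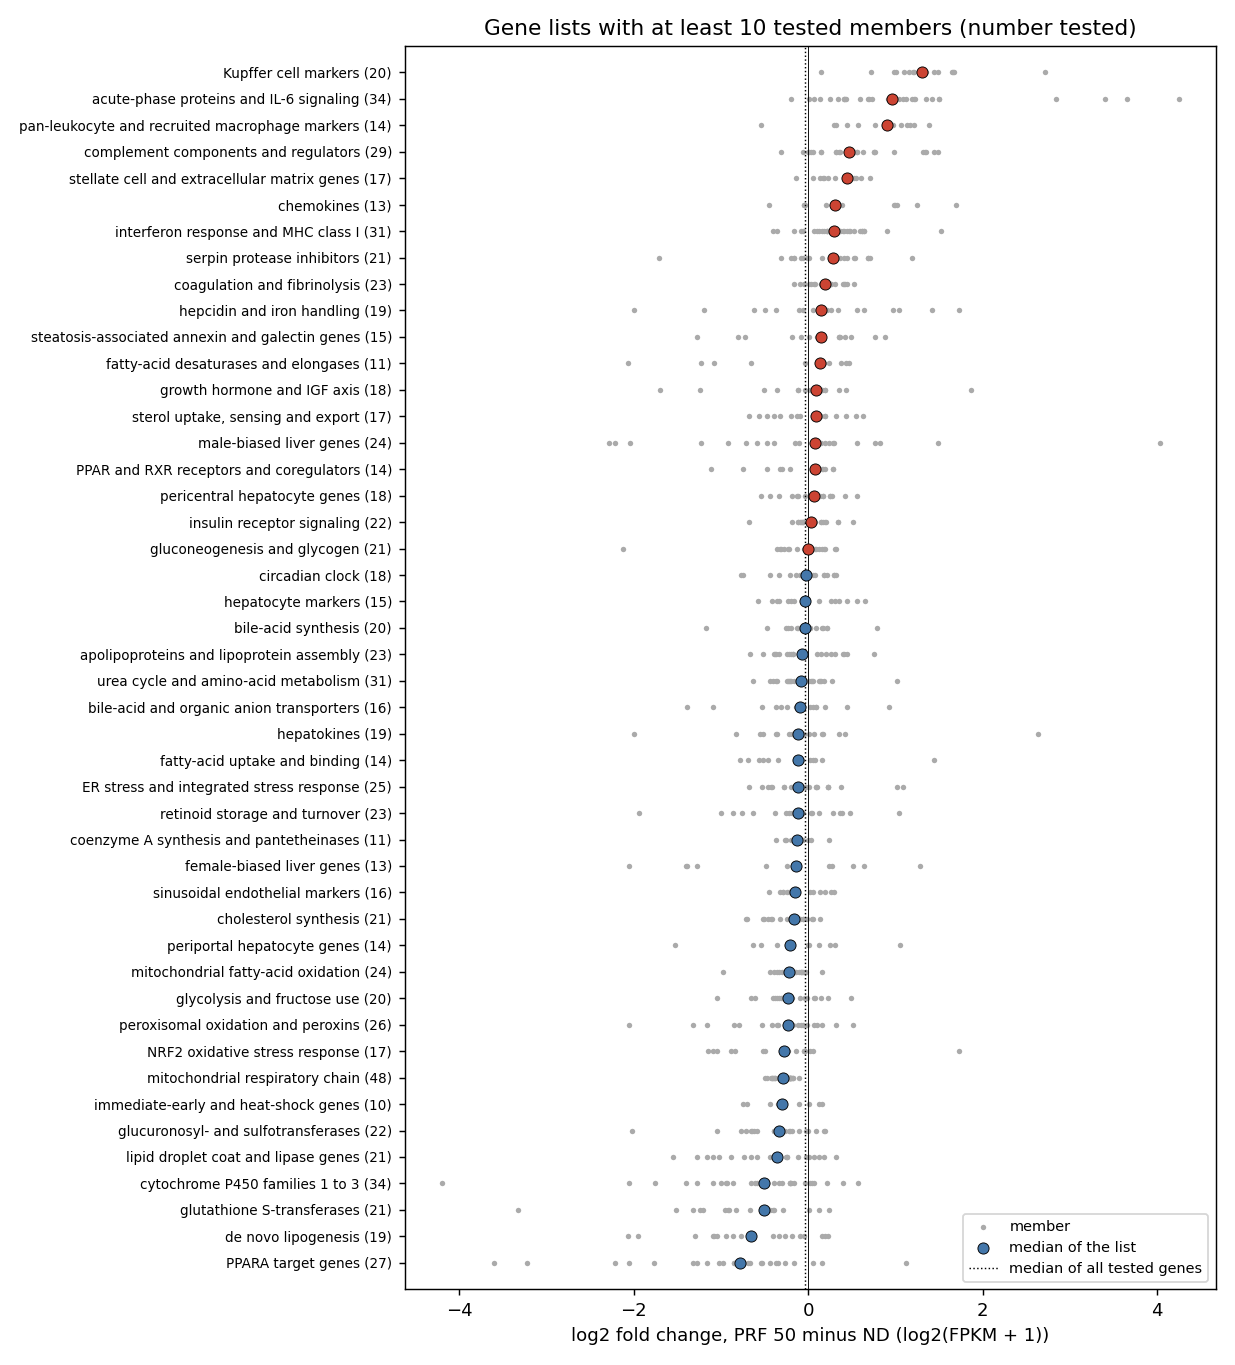
Log2 fold change of PRF 50 against ND for the tested members (grey) of each gene list with at least 10 of them, with the median of each list in red when above 0 and in blue when below. The dotted line marks the median of all tested genes. Kupffer, acute-phase and leukocyte lists lie to the right of it, and PPARA targets, fatty-acid synthesis, P450 and glutathione transferase lists to the left.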

How the data were processed

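Liver RNA of 9 male mice was sequenced in paired-end, directional poly(A) libraries, and the tables hold 1 value per gene symbol and liver. The authors used FASTX_Trimmer and BBMap for trimming, TopHat for mapping to mm10 and Cufflinks for FPKM, and they normalized geometrically. Versions and the annotation are not given in the sources used here. The deposited values are log2 FPKM, and a pseudocount of 1 was inferred from them. FPKM was taken back as 2^value - 1 for filters, sums and depth.

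The 3 PRF 50 livers were compared with the 3 ND livers, all from separate mice, with limma 3.58.1 in R 4.3.3 (lmFit; eBayes, trend set to TRUE). The fit used the deposited log2 scale and 10051 genes, with Benjamini-Hochberg adjustment over these. The script was tested on simulated data first. Absolute depth is unknown, and the relative depths in the report come from the most common ratio of the lowest values. Alternatives were each mouse left out, all 9 mice in 1 fit, quantile normalization, scaling by median ratios, a variance without trend, a lower pseudocount (0.1), a higher minimum (10 FPKM) or none at all and, chosen after seeing the data, a correction for transcript length (GENCODE M21 lengths). HFD livers were left out of the tests and fitted in the same way in comparisons of their own.

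The 58 gene lists and the members were chosen with earlier results of these data known, and lists are described by counts and medians. Genes were named by a rule: the 12 largest changes in each direction among calls without overlap, the 5 smallest p in each direction, and from each list up to 6 calls, up to 4 members with p under 0.05 and a fold above 2, and the 2 most abundant. Not all genes of the rule are described. Dph7, 4933404O12Rik, Snord49a, Clec4f, Timd4, Slc40a1, C1qc, Orm2, Hp, Itih4, Apcs, Socs3, C8a, Keg1, Oasl2, Emp2, Car3, Txnip, Ethe1, Vegfb, Csad, Nr1i2, Nr1i3, Cpt1a, Ucp2, Plin2, Ndufb8 and paralogs named for shared sequence were outside this rule and were chosen after their values were seen. Shared sequence is the percentage of 50-base stretches of a gene's transcripts found in transcripts of other genes. Promoters came from RefSeq on GRCm38.p6.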

Additional observations from a re-analysis of the deposited data

How the results depend on the processing

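The count of 46 genes with an adjusted p under 0.05 ranged from 4 to 71 when a mouse was left out, was 107 with all 9 mice in 1 fit and 11 with no minimum level. It stayed between 41 and 47 under the other settings, which include the transcript length correction chosen after seeing the data (45). The 177 genes with p under 0.05 and a fold above 2 ranged from 131 to 239 with a mouse left out, and were 289 with a pseudocount of 0.1 and 97 with a minimum of 10 FPKM. Of the 46 called genes, 11 kept the call in every setting that uses all 6 livers and in which they were tested. Serpinb1a, among these 11, was not tested with a minimum of 10 FPKM. Of the 46, 4 kept the call with each mouse left out, and none changed direction. Of the named genes without a call, 31 were called in some setting, and 37 changed sign in some setting.

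No paired analysis was possible because mouse numbers name animals, and the ND and PRF 50 groups share only number 9. Each group holds 3 mice, or 2 with a mouse left out. Diet and PRF differ together between the groups, and the order in which mice were handled and sequenced is not given in the sources used here. The data compared here are RNA levels and hold no protein values. The values are FPKM and not counts, so the depth of each liver did not enter the tests.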
